A study of Mus musculus with 92 samples.

Results

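STAG2 is one of the subunits that let the cohesin ring bind chromosomes, and the STAG2 sites that differed between d2PGCLC and EpiLC are described here: 6093 gained sites and 20355 lost sites, 26448 in all. A site was a merged interval overlapped by peaks of at least 2 STAG2 lists of a cell type, which gave 53187 sites in d2PGCLC and 72156 in EpiLC. A gained site was a d2PGCLC site with no peak in either EpiLC list, and 11.5% of the d2PGCLC sites met this. A lost site was an EpiLC site with no peak in any of the 3 d2PGCLC lists, and 28.2% of the EpiLC sites met this. Of the remaining d2PGCLC sites, 44293 had a peak in both EpiLC lists and are called kept, and 2801 had a peak in 1 EpiLC list. Over all cell types of the series, the STAG2 lists merged into 135188 intervals.

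The data are chromatin immunoprecipitation sequencing (ChIP-seq) peak lists with a STAG2 antibody, 3 from d2PGCLC and 2 from EpiLC. Both cell types carried the genotype named WT in the labels and came from the mouse line BDF1-2-1, which holds the reporters Blimp1-mVenus and Stella-ECFP (BVSC). d2PGCLC, primordial germ cell-like cells induced in culture from EpiLC, were sorted for Blimp1-mVenus, and EpiLC, the epiblast-like cells they derive from, were harvested without a sort. Sorting and cell type therefore cannot be told apart in any difference given here. The labels do not say whether lists with different numbers came from separate cultures, so the spread between lists may be technical. Expression of marker genes was not measured in these lists, so cell identity rests on the labels.

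Cohesin extrudes chromatin loops and pauses at the insulator protein CTCF, where STAG1-cohesin and STAG2-cohesin both sit. STAG2-cohesin is also known from places without CTCF, such as enhancers and promoters bound by cell-type-specific transcription factors. EpiLC are in a formative pluripotent state held by factors such as OTX2 and POU3F1 (also called OCT6). In the PGCLC system, BMP4 acts on EpiLC through SMAD proteins and a WNT response, mesodermal genes such as T are switched on for a short time, and the germ cell regulators PRDM1 (BLIMP1), PRDM14 and TFAP2C follow.

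The bases just before the start of T, of Otx2 and of Sycp2 are shown as examples of a gained site, a lost site away from CTCF and a lost site at CTCF that cover a promoter. T, which encodes the mesodermal T-box factor Brachyury, had a gained site (chr17:8433959-8434418, GRCm38) over 246 of the 250 bases shown. Otx2, which encodes the homeodomain factor of the formative state, had a lost site (chr14:48667452-48667812) over all 250 bases before one of its starts, while other peaks near its starts were found in all 5 lists. Sycp2, a gene for the chromosome axis of meiotic cells, had a lost site that lay at a CTCF site (chr2:178407628-178407997) over all 250 bases. The start patterns of T and Sycp2 were not found with lists of equal length. Sequences are from RefSeq (GRCm38.p6), 5′ to 3′ on the strand of the gene, T on the plus strand (chr17:8434173-8434422), Otx2 on the minus strand (chr14:48667509-48667758) and Sycp2 on the minus strand (chr2:178407659-178407908). Capitals mark a match to the core of the CTCF motif.
T: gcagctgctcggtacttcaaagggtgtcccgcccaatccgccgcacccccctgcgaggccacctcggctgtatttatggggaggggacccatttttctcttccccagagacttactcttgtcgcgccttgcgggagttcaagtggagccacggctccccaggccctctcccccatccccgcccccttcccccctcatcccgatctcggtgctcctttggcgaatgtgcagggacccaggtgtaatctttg
Otx2: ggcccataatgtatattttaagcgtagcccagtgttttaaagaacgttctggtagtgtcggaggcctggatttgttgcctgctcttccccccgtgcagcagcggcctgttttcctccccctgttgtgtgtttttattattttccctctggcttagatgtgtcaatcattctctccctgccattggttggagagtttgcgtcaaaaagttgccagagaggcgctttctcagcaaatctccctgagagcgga
Sycp2: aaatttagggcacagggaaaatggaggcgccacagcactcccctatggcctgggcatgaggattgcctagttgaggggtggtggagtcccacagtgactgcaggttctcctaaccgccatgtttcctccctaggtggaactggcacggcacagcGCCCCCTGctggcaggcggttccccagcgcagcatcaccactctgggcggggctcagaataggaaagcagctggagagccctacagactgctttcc
Of 5 motifs searched on both strands, the CTCF core CAGNGGGC was the 1 that matched, and it matched in the Sycp2 stretch, on the opposite strand. The other 4 were GCCNNNGGC for TFAP2, the octamer ATGCAAAT, the T-box motif AGGTGTGA and AGNGAAAG for PRDM1, and no match means that these letters are not in these windows. Promoter G+C content was 62.8% for T, 49.2% for Otx2 and 60.4% for Sycp2.

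The d2PGCLC lists held fewer STAG2 peaks than the EpiLC lists and differed more among themselves. They held 73250, 42249 and 54295 peaks, against 84904 and 82994 in EpiLC. No d2PGCLC list reached the length of an EpiLC list. Mean length was 56598 ± 15628 in d2PGCLC (SD, n = 3) and 83949 ± 1351 in EpiLC (SD, n = 2), a log2 ratio of -0.61. In the exact two-sided permutation test p was 0.2 (0.333 after adjustment over the 5 list-level tests), which is the smallest p that 3 lists against 2 allow, so no comparison of lists could reach 0.05. Read depth is unknown here, and its part in list length was not tested.

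How gains compared with losses in number changed with the length and the choice of lists. When each list was reduced to its 42249 peaks of highest fold enrichment, there were 7935 gained and 5415 lost sites, a gained share of 59.4% of the changed sites in place of 23.0%. Without d2PGCLC list 1, the longest, the gained sites numbered 2414 and the gained share was 8.44%. The share was 17.8% (4440 gained sites) without list 2, the shortest, and 15.2% (3926 gained sites) without list 3. With 2 d2PGCLC lists left a site had to be in both, so leaving out a list does not isolate list length. The numbers of gained and lost sites are therefore not compared with each other as such below.

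Peaks near gene starts took a larger share of the d2PGCLC lists. They made up 24.4%, 22% and 22.9% of peaks in d2PGCLC, against 18.7% and 18.8% in EpiLC, where near means within 2500 bp of the start of a protein-coding gene. The groups did not overlap, and the means were 23.1% ± 1.21 in d2PGCLC (SD, n = 3) and 18.7% ± 0.0899 in EpiLC (SD, n = 2; exact permutation p = 0.2, adjusted 0.333). The difference of 4.39 percentage points was 6.08 points once lists had equal length. A STAG1 peak of the same cell type was present at 36.9%, 60.0% and 49.3% of the d2PGCLC STAG2 peaks, against 29.4% and 30.1% of the EpiLC STAG2 peaks. These groups did not overlap either (difference 19 points, exact permutation p = 0.2, adjusted 0.333), and the difference was 4.71 points at equal list length.

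The share of peaks at CTCF sites depended on list length. CTCF was mapped in this series in germline stem cells (GSC) of 4 mutant genotypes, a different line and cell type, and a CTCF site here is an interval called in all 4 lists. Such sites numbered 36623. They were met by 38.2%, 54.3% and 49.3% of the d2PGCLC peaks, against 37.9% and 38.6% of the EpiLC peaks, with d2PGCLC list 1 inside the EpiLC range. The mean difference of 9.01 points (exact permutation p = 0.4, adjusted 0.5) was -6.58 points once all lists had equal length (exact permutation p = 0.2). The median peak width of a list averaged 380 ± 25.1 bp in d2PGCLC (SD, n = 3) and 386 ± 8.49 bp in EpiLC (SD, n = 2), and the groups overlapped (exact permutation p = 0.8). At equal list length the means were 430 bp in d2PGCLC and 502 bp in EpiLC (exact permutation p = 0.6).

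**Figure D1:**
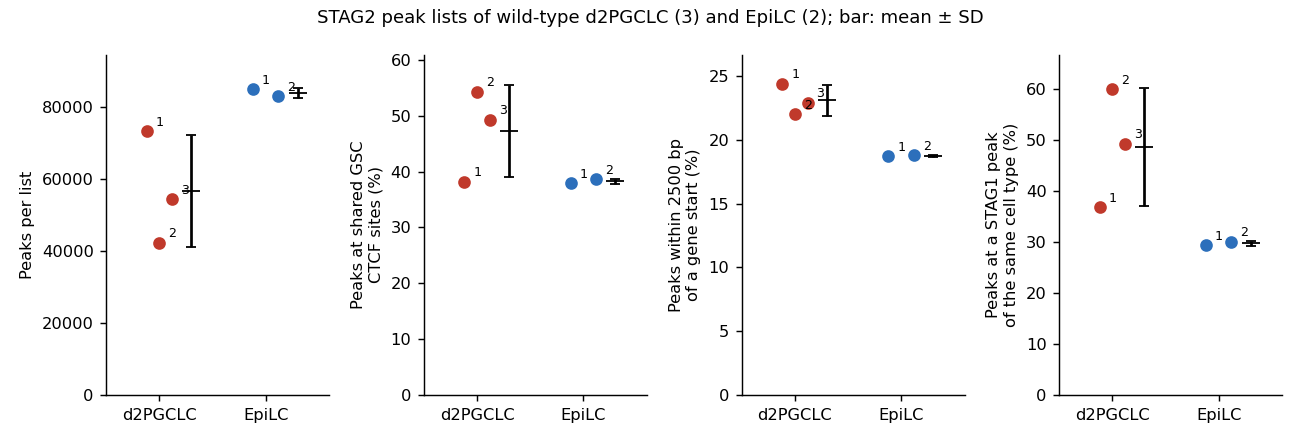
Each point is 1 STAG2 peak list, numbered by replicate, and each black bar is the mean ± SD of d2PGCLC (n = 3) or EpiLC (n = 2); the vertical axes give the number of peaks and the percent of peaks at shared GSC CTCF sites, within 2500 bp of a gene start and at a STAG1 peak of the same cell type. The d2PGCLC points lie below the EpiLC points for number, above them for gene starts and STAG1, and overlap them for CTCF.

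Gained sites lay almost entirely away from CTCF. Of the 6093 gained sites, 75 overlapped a CTCF site, which is 1.23% (95% Wilson interval 0.983 to 1.54, counting error over sites only). Of the lost sites, 3328 did so, 16.3% (15.8 to 16.9), and of the kept sites 58.9%. Over all sites the CTCF share was 49.5% in d2PGCLC and 43.5% in EpiLC. With CTCF intervals of any genotype the shares were 2.63% for gained, 22.4% for lost and 67.8% for kept sites. With lists of equal length the gained and lost shares were 10.2% and 36.7%, so the gained share stayed below the lost one while both were larger.

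The share near gene starts was low among lost sites and about that of all d2PGCLC sites among gained sites. A gene start lay within 2500 bp of 23.1% of the gained sites (1407), against 9.51% of the lost sites (1936) and 20.8% of the kept sites. Over all sites it lay near 22.5% in d2PGCLC and 17.6% in EpiLC. The windows around gene starts cover 4.69% of the chromosomal span. The gained share was higher than the lost share in each alternative tried, with gained values of 16.9% to 33.9% and lost values of 4.61% to 12.4%. Gene bodies held 56.7% of the gained and 42.8% of the lost sites, and the median distance to a gene start was 23473 bp for gained and 31586 bp for lost sites. Sites of both classes were narrower than kept sites, with medians of 455 bp for gained, 352 bp for lost and 510 bp for kept.

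Sites just short of either definition had intermediate CTCF shares. A d2PGCLC site with a peak in 1 EpiLC list was at CTCF in 6.07% and near a gene start in 48.3% of cases. An EpiLC site with a peak in 1 d2PGCLC list was at CTCF in 26.5% and near a gene start in 20.1%, and with peaks in all 3 d2PGCLC lists the CTCF share was 65.6%. The more of the other cell type's lists had a peak at a site, the larger was its CTCF share, in both directions. Gained and lost sites also held weaker peaks within their own lists. In the d2PGCLC lists the median percentile of fold enrichment was 39.3, 19.5 and 17.7 for gained sites, against 69.3, 57.4 and 60.1 for kept sites. In the EpiLC lists it was 34.8 and 32.9 for lost sites, against 79 and 78.5 for EpiLC sites called in all 3 d2PGCLC lists. Over all EpiLC sites it was 57.5 and 56.5. Chromosome X held 1.56% of the gained, 3.65% of the lost and 2.62% of the kept sites.

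**Figure D2:**
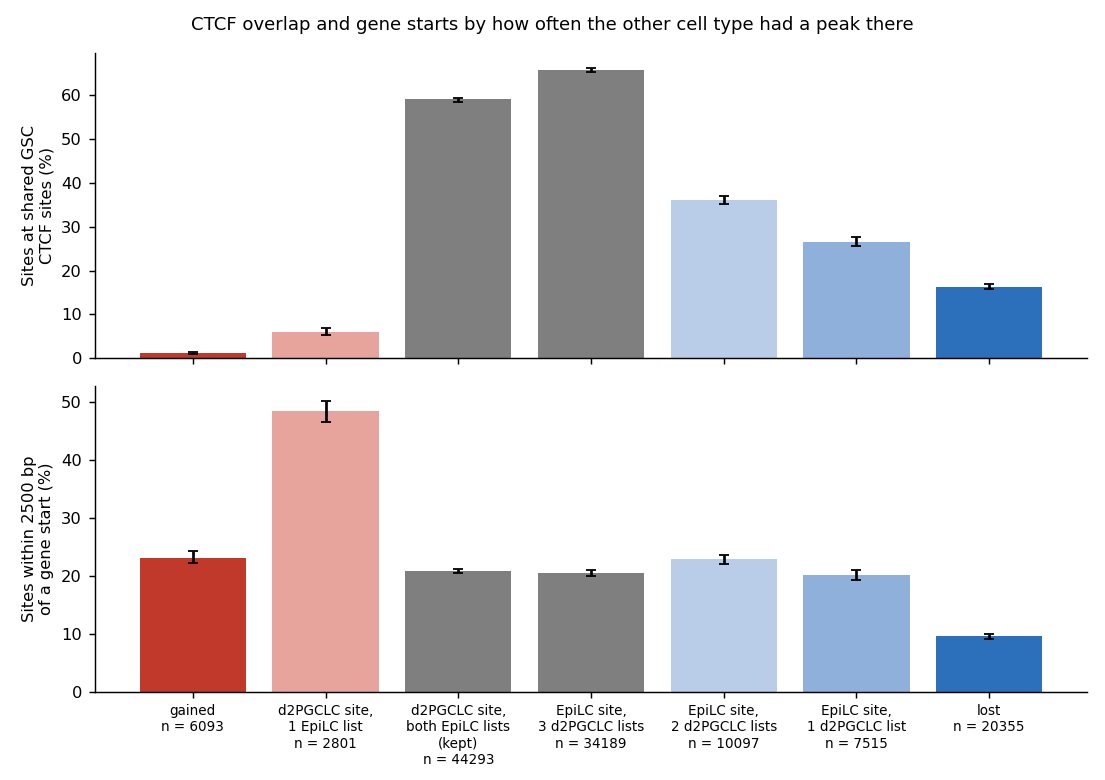
Bars give the percent of sites at shared GSC CTCF sites (top) and within 2500 bp of a gene start (bottom), by how many lists of the other cell type had a peak there; error bars are 95% Wilson intervals, which cover counting error over sites only. CTCF shares run from 1.23% at gained and 16.3% at lost sites up to 58.9% and 65.6% at sites found in every list of the other cell type.

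Promoter sequence differed between the classes in G+C content and in some motif shares. Among 32851 RefSeq promoter windows of 300 bases, gained sites overlapped 1026, lost sites 423 and kept sites 5667. Median G+C was 62.7% in gained, 55.3% in lost and 63.7% in kept windows, against 52.7% in all windows. The TFAP2 motif was in 31.4% of the gained, 17.7% of the lost and 28.7% of the kept windows, against 16.6% of all. The octamer bound by POU factors was in 0.877% of the gained (9 windows), 3.07% of the lost (13 windows) and 1.64% of the kept windows, against 1.74% of all. Shares with the CTCF core were 13.3%, 9.93% and 17.0% in gained, lost and kept windows, against 9.06% of all, those with the PRDM1 motif 8.38%, 9.22% and 7.09%, against 8.63%, and those with the T-box motif 0.78%, 1.18% and 0.547%, against 1.28%. The motifs are short strings and a match is not a bound site.

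Among the STAG1 lists, made with another antibody, those of d2PGCLC stood apart in the gained share of the changed sites they covered. In d2PGCLC the STAG1 lists had peaks at 45 and 161 gained sites and at 41 and 127 lost sites, so gained sites made up 52.3% and 55.9% of the changed sites with a STAG1 peak. In EpiLC the STAG1 lists had peaks at 1 and 11 gained sites and at 131 and 1044 lost sites, so gained sites made up 0.758% and 1.04%. Low shares were not particular to EpiLC. They were 2.15% and 1.18% in the ESC, 4.97% and 5.43% in the d4c7PGCLC and 0% and 1.51% in the GSC STAG1 lists. The STAG1 lists held 21438 and 26820 peaks in d2PGCLC and 14720 and 25756 in EpiLC. Over all changed sites the gained share was 23%. Few changed sites had a STAG1 peak at all, 3.04% of the gained and 5.74% of the lost sites in any list of either cell type, against 66.8% of the kept sites. Whether the STAG1 and STAG2 lists came from shared cultures is not stated.

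More of the lost than of the gained sites were also called in ESC, and most gained sites were called at neither neighbouring stage. ESC, embryonic stem cells from which EpiLC are made, had STAG2 peaks in either list at 23.1% of the gained and 50.9% of the lost sites, against 94.9% of the kept sites. The later germ cell-like stage named d4c7PGCLC had STAG2 peaks in any of its 3 lists at 22.3% of the gained and 16.2% of the lost sites, against 86.1% of the kept sites. Neither stage had a STAG2 peak at 66.8% of the gained and 46.1% of the lost sites. Both had one at 12.1% of the gained and 13.2% of the lost sites, while 10.1% of the gained and 2.99% of the lost sites were called in d4c7PGCLC and not in ESC. Among the changed sites called in a list, gained sites made up 10.4% and 11.7% in the ESC lists and 29.1%, 32.4% and 29.5% in the d4c7PGCLC lists.

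In most of these lists, sites at CTCF were called more often than sites of the same class away from CTCF. Of the 3328 lost CTCF sites, 71.1% had a STAG2 peak in ESC, 34.4% in d4c7PGCLC and 26.5% in GSC. ESC STAG1 lists had a peak at 50.7% of them and EpiLC STAG1 lists at 18.7%. The share was 2.22% for STAG1 in d2PGCLC, 63.7% in d4c7PGCLC and 14.2% in GSC. Each cell type taken alone, most of these sites thus had a STAG1 peak in d4c7PGCLC, and most lacked one in d2PGCLC, in EpiLC and in GSC. How many sites met all of these together was not counted. That they lacked a d2PGCLC STAG2 peak is set by the definition of a lost site. Away from CTCF the 17027 lost sites had a STAG2 peak in 47.0% of cases in ESC and 12.6% in d4c7PGCLC, and a STAG1 peak in 9.59% in ESC and 10.7% in d4c7PGCLC. Gained and kept sites were split in the same direction: ESC STAG2 peaks lay at 68% of the gained sites at CTCF and 22.5% of those away, and ESC STAG1 peaks at 93.9% of the kept sites at CTCF and 41.4% of those away. The d4c7PGCLC STAG1 lists were longer than those of d2PGCLC, at 38491 and 42013 peaks, and the part of list length in this contrast was not tested.

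STAG3, the cohesin subunit best known from meiosis, was mapped in GSC of a different line. Any of its 3 lists had a peak at 19.9% of the gained sites and 8.91% of the lost sites, against 41.7% of the kept sites. Gained sites made up 39.6%, 41.8% and 41.7% of the changed sites with a STAG3 peak, against 27.2%, 11% and 30.9% of those with a GSC STAG2 peak.

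**Figure D3:**
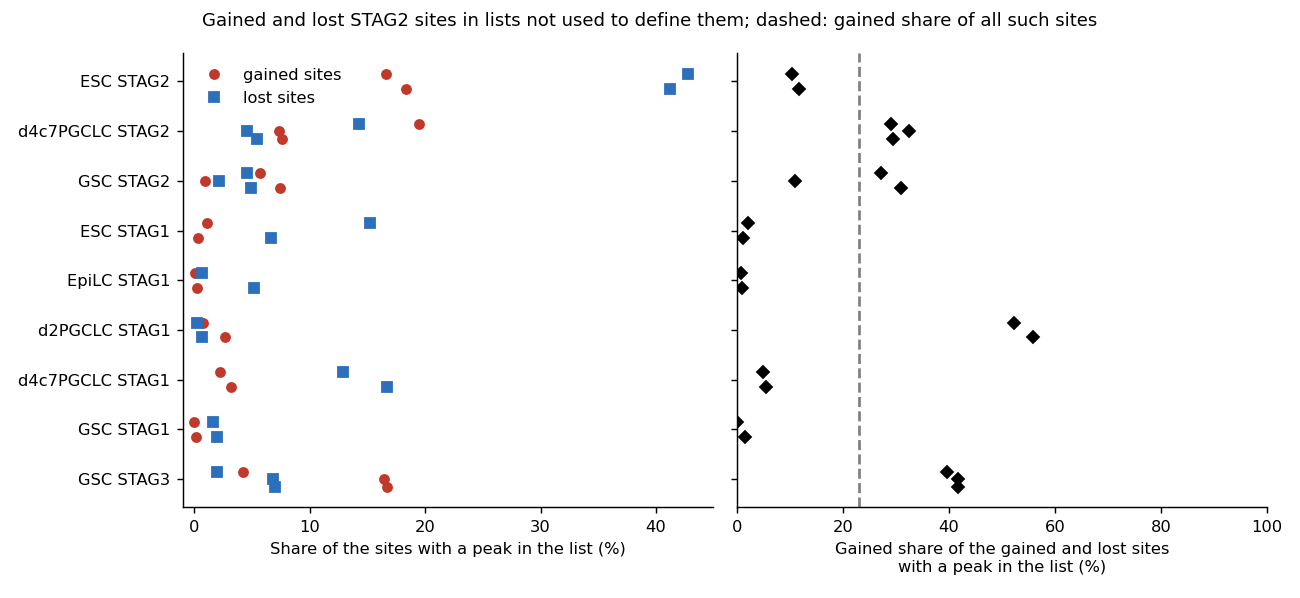
Each point is 1 peak list that played no part in defining the classes; the left panel gives the percent of gained (circles) and lost (squares) STAG2 sites with a peak in that list, and the right panel the gained share of the changed sites it covers, with a dashed line at 23% for all changed sites. The d2PGCLC STAG1 lists lie right of the line at 52.3% and 55.9%. All other STAG1 lists, those of EpiLC (0.758% and 1.04%) included, lie far left of it.

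Genes whose start window had a peak in all 3 d2PGCLC lists and in neither EpiLC list numbered 232 of 21887, or 1.06%. Genes with the reverse pattern, a peak in both EpiLC lists and in no d2PGCLC list, numbered 613, or 2.8%. At equal list length the counts were 1120 and 282, so which pattern was more frequent turned with list length. Windows with a peak in every one of the 5 lists were far more frequent, at 6676 genes.

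Among the mesendoderm genes, 2 of 14 had the gained pattern and none the lost pattern, beside 1.06% and 2.8% of all genes. They were T and Hand1, a basic helix-loop-helix factor of extraembryonic and heart mesoderm. The site at T had fold enrichments over background of 4.04, 7.52 and 6.48 in the 3 d2PGCLC lists. It was found in neither EpiLC list, in no ESC or d4c7PGCLC STAG2 list, and in 2 of the 3 GSC STAG3 lists. This site overlapped the body of another protein-coding gene, LOC115486424, and T had no gained site in the counts by nearest gene below. At Hand1 a site over the gene (chr11:57831591-57832385) had fold enrichments of 7.20, 7.05 and 4.26, and another beside it (chr11:57832571-57833244) had 8.95, 7.52 and 7.19. At equal list length Hand1 kept its pattern and T did not, since its peak in d2PGCLC list 1 stood at percentile 7.69 of that list.

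Of the 21 NODAL and FGF genes, 1 had the gained pattern and none the lost pattern. It was Fgf8, an FGF ligand of the primitive streak, with a broad site of 2326 bp (chr19:45734074-45736399) and fold enrichments of 9.22, 7.68 and 7.46. Fgf8 kept its pattern with lists of equal length, where 5 of the 21 genes were gained, and without d2PGCLC list 1 there were 1 gained and 2 lost genes (Etv4 and Fgf5). Hoxb4, of the anterior part of the HoxB cluster, was the 1 gained gene of 39 Hox genes, with 8.10, 4.64 and 3.28 (chr11:96319920-96320356). Hoxc11 was the 1 lost gene among them. At equal list length neither kept its pattern and Hoxb1 had the gained one. At the deposited lengths, no gene of the early PGC (12), formative pluripotency (14), BMP (24), WNT (24) or cohesin and CTCF (20) lists had either pattern. At equal list length, 11 BMP genes and 4 WNT genes had the gained pattern and 1 formative gene the lost one, beside 1120 gained and 282 lost genes of all 21887. Without d2PGCLC list 1, 3 formative genes (Etv4, Fgf5 and Sox3) and 1 early PGC gene (Dppa3) had the lost pattern, beside 236 gained and 1588 lost genes of all.

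Lost start patterns were found in the naive, core, late germline and meiotic lists, among others. Of 16 naive pluripotency genes, 3 had the lost pattern and none the gained pattern, beside 2.8% and 1.06% of all genes. The largest fold enrichment among them was at Zfp42 (Rex1), a marker of ESC, with 12.7 and 11 in the 2 EpiLC lists (chr8:43305707-43306067). Dppa5a had 3.92 and 4.68 at one site and 5.31 and 4.39 at another, and Fbxo15 had 10.4 and 5.62. Dppa4, 1 of 10 core pluripotency genes, had 7.16 and 7.49 at one site and 6.23 and 4.45 at another. All of these lost sites lay away from CTCF, and those of Zfp42, Dppa5a and Fbxo15 had a peak in both ESC STAG2 lists. At equal list length 2 naive genes (Klf2 and Nr0b1) had the gained pattern and 1 (Zfp42) the lost one. Of the core genes, Nanog then had the lost pattern. Over all 21887 genes, 1120 were gained and 282 lost in that setting.

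Of 17 late germline genes, 4 had the lost pattern and none the gained pattern, again beside 2.8% and 1.06% of all genes. Tdrd12, which acts in the piRNA pathway, had 14.1 and 17.8, and Tex19.1, which restrains transposons in germ cells, had 8.73 and 6.68, both at CTCF sites. Mael had 5.75 and 6.56 and Slc25a31 had 4.85 and 5.39, both away from CTCF. Of 21 meiotic genes, 2 were lost: Sycp2 at a CTCF site with 6.55 and 8.15, and Hormad2, of the meiotic chromosome axis, away from CTCF with 8.84 and 15.7. The lost sites at Tdrd12 and Sycp2 had a STAG1 peak in both d4c7PGCLC lists and a STAG3 peak in all 3 GSC lists, but no STAG1 peak in d2PGCLC. With lists of equal length the lost pattern held at Zfp42 and Tdrd12 and not at the other 8 genes of these 4 lists. In that setting 1 late germline gene (Taf7l) and 1 meiotic gene (Msh5) had the gained pattern, and Dmc1, also meiotic, the lost one.

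Other lists as deposited gave Snrpn and Phlda2 of 18 imprinted genes, Dcn of 12 fibroblast feeder genes and 4 of 81 ribosomal protein genes (Rpl10l, Rpl35a, Rpl37a and Rps9) as lost, with no gained gene. Over all genes, 2.8% had the lost and 1.06% the gained pattern. At equal list length, 1 imprinted and 3 fibroblast feeder genes were gained and none lost. Ribosomal protein genes then had 4 gained and 3 lost. Of the genes named here, Rpl10l alone kept the lost pattern. With the lists as deposited, none of 20 epigenetic modifier genes and none of 57 clustered protocadherin genes had either pattern. Olfactory receptor genes, silent outside the nose and used here as a set far from active chromatin, had 2 gained (Olfr368 and Olfr794) and 20 lost of 1106. Stag1, Stag2 and Ctcf had a start peak in all 5 lists, and Stag2 itself was the gene nearest to no gained and 6 lost sites. Stag3 had one in d2PGCLC lists 1 and 2 and in no EpiLC list, and Rad21 in d2PGCLC list 1 alone.

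Most changed sites were away from starts, so each was also assigned to the protein-coding gene nearest to it. Over all genes, gained sites were 23.0% of the changed sites. For the 14 mesendoderm genes they were 61.7% (29 gained and 18 lost), for the 24 BMP pathway genes 55.6% (50 and 40) and for the 39 Hox genes 58.3% (14 and 10). Among the low shares were formative pluripotency genes with 5.49% (5 gained and 86 lost), core pluripotency with 8.16% (4 and 45) and neural genes with 8.33% (3 and 33). The mesendoderm, BMP and Hox shares lay above the share over all genes, and the formative, core and neural shares below it, in each of 9 alternatives of list length, list choice and overlap. The shares themselves depended on the lists. At equal length they were 90.3% for mesendoderm, 86.6% for BMP and 81.8% for Hox genes and 28.2% for formative genes, beside 59.4% over all genes. Without d2PGCLC list 1 they were 36.6%, 38.2% and 32% and, for formative genes, 1.85%, beside 8.44% over all genes. Intermediate shares were 44.4% for fibroblast feeder, 41.9% for early PGC, 39.2% for WNT, 38.3% for NODAL and FGF, 36.4% for naive pluripotency, 33.3% for imprinted, 30.8% for late germline, 20.7% for ribosomal protein, 18.2% for clustered protocadherin and 15% for epigenetic modifier genes. The lowest shares were those of meiotic genes (3.7%) and the cohesin and CTCF list (4.17%), and olfactory receptors had 8.79%. The late germline, ribosomal protein, protocadherin, epigenetic modifier and cohesin lists changed sides of the share over all genes in at least 1 alternative. The fibroblast feeder, early PGC, WNT, NODAL and FGF, naive and imprinted shares also lay above that share in all 9 alternatives. The olfactory receptor and meiotic shares lay below it in all 9. Equal length gave 100% for early PGC, 86.7% for fibroblast feeder and 82.4% for imprinted genes, beside 59.4% over all genes. Sites near 1 gene are not independent of each other, and nearest does not mean that a site acts on the gene.

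**Figure D4:**
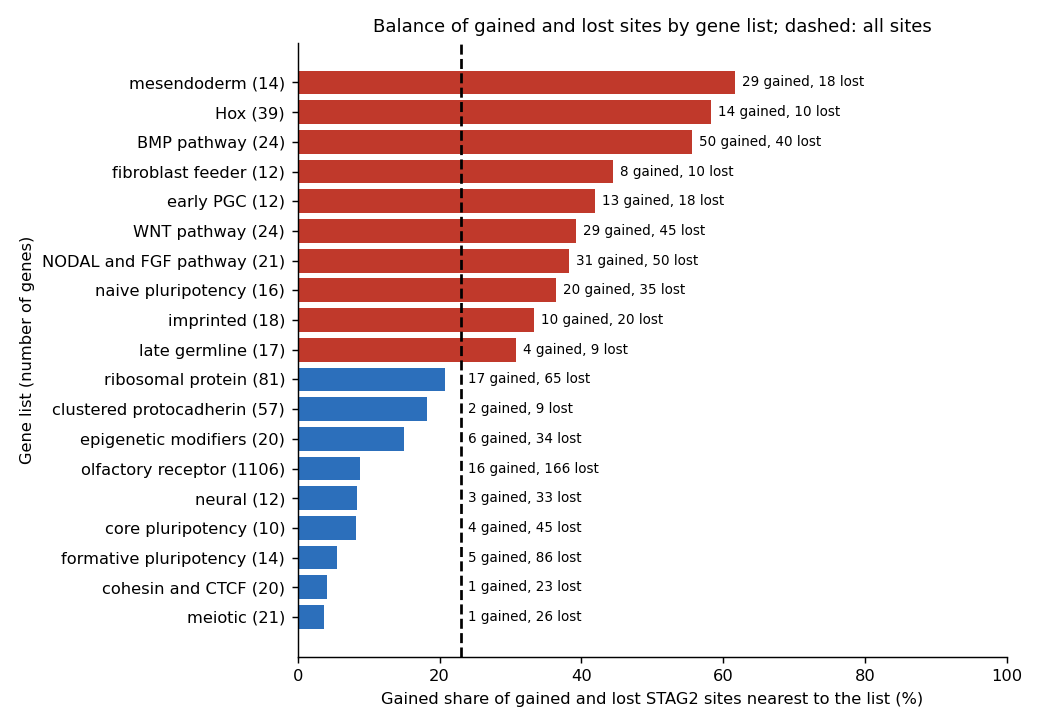
Bars give, for each gene list, the gained share of all gained and lost STAG2 sites whose nearest gene is in the list, with the site counts beside them; the dashed line marks 23% over all genes. Mesendoderm (61.7%), Hox (58.3%) and BMP pathway (55.6%) genes lie highest, and formative pluripotency (5.49%), cohesin and CTCF (4.17%) and meiotic genes (3.7%) lowest.

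In the BMP pathway, 12 of 24 genes had more gained than lost sites and 8 had fewer, beside 1913 and 7812 of all genes, and several targets of the pathway were among the 12. Smad6, an inhibitory SMAD induced by BMP, had 8 gained and 3 lost sites. The strongest of the gained ones (chr9:64044891-64045938) lay 22805 bp from the gene and had fold enrichments of 28.1, 17.5 and 10.7. Msx1 and Msx2, homeobox targets of BMP, had 5 gained sites each, with 1 lost site at Msx1 and none at Msx2. Id1, an inhibitor of basic helix-loop-helix factors and a classic SMAD target, had 4 gained sites and no lost one. The widest, at 2253 bp (chr2:152737513-152739765), had fold enrichments of 16.0, 5.95 and 8.52. Related genes of the list did not all go this way. Id2 had 5 gained and 4 lost sites, Id3 had 2 and 2, and Id4 and Smad7 had 1 and 2 each. Without d2PGCLC list 1, Id2 had 1 gained and 6 lost sites. At equal list length Id2, Id3, Id4 and Smad7 each had more gained than lost sites. Bmp4, the ligand itself, had 3 gained and 2 lost sites, 1 of the gained ones 845 bp from the gene with 13.0, 8.64 and 6.66. The receptor genes Bmpr1a, Bmpr1b and Bmpr2 had no gained site and 3 lost sites each, and the receptor gene Acvr1 had 2 gained and 1 lost. At equal list length Bmpr1a had 1 gained and 1 lost site and Bmpr2 had 1 gained and none lost, so the counts at these receptors depended on list length. Without d2PGCLC list 1, Bmp4 had 3 gained and 4 lost sites and Acvr1 none gained and 1 lost. These genes were chosen after their counts were seen, as were the others named by nearest sites below.

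Mesendoderm genes with several gained sites were Hand1 and Gata6 (6 gained and 1 lost each) and Lhx1, a LIM homeobox factor of the node and streak (5 gained and 1 lost). The most enriched gained site of Lhx1 (chr11:84592623-84593563) lay 67088 bp away and had 20.5, 18.2 and 13.6, which placed it among the 10 highest-ranked gained sites of the genome. Eomes and Foxa2 had no gained site, and 4 and 6 lost sites. Without d2PGCLC list 1, Gata6 had 1 gained and 2 lost sites, Lhx1 3 and 3, and Hand1 3 and 1. Eomes had 2 gained and 1 lost site and Foxa2 1 and 1 at equal list length. In the WNT list, Axin2, a feedback inhibitor used as a readout of WNT signalling, had 6 gained sites and 1 lost site, and its strongest (chr11:108906572-108907441) had 25.2, 13.0 and 8.48. Without d2PGCLC list 1, Axin2 had 1 gained and 2 lost sites, so its balance turned. Fzd7, a WNT receptor gene, had 1 gained and 9 lost sites, but 2 gained and 1 lost at equal list length. In the NODAL and FGF list, Smad3, a signal transducer of NODAL and activin, had 6 gained and no lost sites. Acvr2a, an activin receptor gene, had 2 gained and 12 lost sites, but 5 gained and 4 lost at equal list length. Tbx3, a T-box factor of the naive list that also responds to BMP, had 9 gained and 4 lost sites, the strongest gained one (chr5:119651125-119652184) with 23.4, 14.4 and 12.5. It had 5 gained and 7 lost sites without d2PGCLC list 1.

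Early PGC genes had a gained share of 41.9% (13 gained and 18 lost sites at 12 genes), beside 23.0% over all genes. At equal list length their share was 100% (16 of 16 sites), beside 59.4% over all genes. Without d2PGCLC list 1 it was 24.1%, beside 8.44% over all genes. Prdm1, whose promoter drives the reporter used for the sort, had 4 gained and 8 lost sites. Tfap2c had 1 gained and 3 lost sites. Prdm1 had 3 gained sites and Tfap2c 2 at equal list length, and neither had a lost one. Prdm14 had 2 gained sites, of which the one found in all 3 d2PGCLC lists (chr1:13073324-13073852) had 7.42, 3.88 and 6.84, and 1 lost site at CTCF. Kit, the receptor of a germ cell survival factor, had 2 gained and 1 lost site, and its strongest gained site (chr5:75478430-75479017) had 20, 10.6 and 10.1. Alpl, which encodes the alkaline phosphatase used to stain germ cells, had 3 gained and 1 lost site. Prdm14, Kit and Alpl had 1 gained and 1 lost site each without d2PGCLC list 1.

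Formative genes lost sites in groups that spread over the surrounding sequence. Pou3f1 had 4 gained and 21 lost sites, the farthest 303830 bp away, and the megabase that holds it was one of 3 with 36 lost sites, the highest number of any. Otx2 had no gained and 11 lost sites, the most enriched one (chr14:48797439-48797890) with fold enrichments of 16.4 and 18.8 in the EpiLC lists. Foxd3, a forkhead factor of the formative state, had no gained and 13 lost sites, with 24.5 and 21.8 at the strongest (chr4:99542732-99543204). Grhl2, which primes epithelial enhancers, and Etv5, an FGF-responsive ETS factor, had no gained and 8 lost sites each. Dnmt3a, a de novo DNA methyltransferase, had none gained and 6 lost. Etv5 also stands in the NODAL and FGF list, and Dnmt3a among the epigenetic modifiers, where Tet1 had no gained and 7 lost sites.

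Core pluripotency genes as a list also had more lost than gained sites with the lists as deposited. At equal list length 50% of their changed sites were gained (12 of 24), against 28.2% for formative genes and 59.4% over all genes. Sox2 had 1 gained and 15 lost sites, Zfp281 had none gained and 8 lost, and Pou5f1 (Oct4) had none gained and 6 lost. One lost site 8096 bp from Pou5f1 (chr17:35496245-35497935) had fold enrichments of 34.6 and 24.4. A lost site near Zfp281 (chr1:136710249-136710722) had 27 and 21.2, lay at CTCF and had STAG1 peaks in both ESC and both d4c7PGCLC lists. Nanog had 1 gained and 3 lost sites, Sall4 had 2 and 2, and Lin28a had none of either. With lists of equal length the lost counts were 8 at Foxd3, 6 at Otx2 and 4 each at Pou3f1 and Sox2, while Pou3f1 had 5 gained sites, so that there the balance turned. Dnmt3a had 1 gained and 1 lost site and Nanog 2 and 2 in that setting. There Zfp281 had 1 gained and 3 lost sites, Pou5f1 had 1 and 2, and Sall4 had 4 gained and none lost.

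The 10 gained sites of highest mean rank were mostly distal and all away from CTCF. The first (chr2:160062609-160063144), 248248 bp from Gm826, had fold enrichments of 31.3, 18.7 and 18.9. The second (chr12:8495932-8497152) lay 508 bp from Rhob, a small GTPase gene, with 26.5, 20.2 and 18.4. Next came a site inside C8a (chr4:104817455-104818046) with 39.6, 13.4 and 19.4. Of the 10, 8 had a STAG1 peak in at least 1 d2PGCLC list, and none had one in an EpiLC STAG1 list. The others lay nearest to Limch1, Tmem260, Tns3, Tmem104, Sox4, Lhx1 and Ly6g5b.

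The 10 lost sites of highest mean rank had larger fold enrichments, of 104 and 85.3 at the first, 32776 bp from the lamin gene Lmnb1 (chr18:56674235-56675036). The second (chr13:21250064-21250615), nearest to Gpx5, had 81.3 and 82, and the next (chr4:129379005-129379819), 976 bp from Zbtb8a, had 96.1 and 65.6. Of the 10, 1 lay at a CTCF site, inside Elf1 (chr14:79513963-79514504), with 65.6 and 62.8. It had STAG1 peaks in both EpiLC and both d4c7PGCLC lists and in neither d2PGCLC list. These sites near Gpx5 and Zbtb8a had STAG2 peaks in all 3 d4c7PGCLC lists although none was called in d2PGCLC. The others lay nearest to Rnf217, Pkd1l2, Irgm1, Gpr157, Mrps36 and Zfp184.

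Counted over gene bodies with 2500 bp to each side, Gse1 held the most gained sites, with 12 gained and 6 lost. Erc2 held 11 gained and no lost sites, Tenm4 8 gained and 4 lost, and Chst11 8 and none. Magi2 held the most lost sites, with 1 gained and 20 lost in 1485 kb, followed by Etl4 with 2 gained and 17 lost, Mtus2 with none gained and 17 lost, Macrod2 with none gained and 16 lost in 1998 kb, and Clybl with none gained and 16 lost. Of these lost-site genes, Magi2 and Macrod2 are the longest. The megabase with the most gained sites (chr2:167000001-168000000) had 24 gained and 14 lost sites, and 4 of the gained ones lay nearest to Snai1, the repressor of epithelial genes, and 3 nearest to Cebpb. It was followed by chr8:120000001-121000000, with Gse1, at 22 gained and 12 lost sites.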

How the data were processed

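STAG2 peak lists of 3 d2PGCLC and 2 EpiLC libraries were compared, with 25 further lists of the series used to describe the sites. Per the submitters' processing notes, the authors' tools were MACS2, Bowtie2 (2.3.4.1), deepTools (3.5.0), SAMtools (1.7), Trim Galore (0.4.1) with cutadapt (1.9.1), and bedtools (2.29.2), on mm10. What each did, its options and the control libraries are not stated in the notes. The deposited lists follow the MACS2 layout and give for each peak the authors' fold enrichment (a linear ratio), −log10 of p and of q, and a score of 10 times −log10 q. STAG lists were called per library and CTCF lists on pooled replicates. Fold enrichment was used to rank or describe peaks within a list, and values of different lists were not tested against each other. Depth is not part of a peak list, so a site without a peak is one where none was called. RefSeq genes of GRCm38.p6 (21887 protein-coding) were used, with a listed start for 17492 and both gene ends for the other 4395. All 255 listed symbols of 18 gene lists were matched, and the olfactory receptors by their symbol prefix. Overlap meant at least 1 bp. Python 3.11.15, numpy 2.4.6, pandas 2.3.3 and scipy 1.17.1 were used, and site calling was tested on simulated lists. List values were compared by exact two-sided permutation over the 10 arrangements of 5 lists, with Benjamini-Hochberg adjustment over 5 tests. Sites and genes were not tested, since they are not replicates.

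The sites, gene lists and tests were chosen with earlier results of these data known. Named were Stag1, Stag2, Stag3, Rad21 and Ctcf, up to 6 list genes per list and direction with a start peak in every list of one cell type and none of the other, the 10 highest-ranked sites of each class, and the 5 genes and 3 windows of 1 Mb with the most sites. Counts by nearest gene, and the genes named from them, were added after the data were seen. Alternatives left out each list, raised −log10 q to 5, equalised list length, and changed overlap, CTCF set and start window. Some genes that met these rules are not reported here.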

Additional observations from a re-analysis of the deposited data

How the results depend on the processing

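Of 126 recomputed values, 81 kept their direction and size class, 42 moved and 3 turned sign. Gained sites numbered 2414 to 7593 when each list was left out in turn and 2313 when a site had to be in every list. Lost sites numbered 20502 to 29378 with each list left out and 5415 with lists of equal length. Genes with the gained pattern numbered 236 to 627 with each list left out and 1120 with equal length, and genes with the lost pattern 629 to 1588 and 282. The CTCF share of gained sites ran from 0.917% to 2.34% with each list left out, and was 10.2% with equal length, 2.85% when a site had to be covered by 50% and 2.63% with CTCF sites of any genotype. The CTCF share of lost sites ran from 13.3% to 18.1% with each list left out, and was 17.2% at −log10 q of at least 5, 36.7% with equal length, 18.3% at 50% and 22.4% with any genotype. Shares near gene starts ran from 17.4% to 28.0% for gained and 9.57% to 12.4% for lost sites with each list left out. For gained sites they were 33.9% with equal length, 16.9% for sites in every list, 31.4% at 50%, 18.8% with 1000 bp windows and 18.5% with listed starts alone. For lost sites they were 10.8% at 50%, 4.61% with 1000 bp windows, 12.2% with either gene end and 6.97% with listed starts alone. The difference in median width, -5.67 bp, lay between -19.5 and 5 bp with each list left out and was -71.8 bp with equal length. The difference in the CTCF share of peaks, 9.01 points, was -6.58 with equal length and 5.5 to 13.5 with each list left out. No other list-level difference changed sign in any alternative. The choices with listed starts alone, with either gene end for sites and genes, and for nearest-gene shares were made after seeing the data.

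The deviations of same-numbered lists of the 2 cell types had correlations over intervals of -0.0174 for number 1 and -0.0141 for number 2. With 2 EpiLC lists, the deviations of one mirror those of the other. These values therefore cannot show whether the numbers are a pairing. With the replicate number as a block over lists 1 and 2, the log2 ratio of list length was -0.594 and the differences were 7.99 points at CTCF, 4.49 points near gene starts, 18.7 points at STAG1 peaks and -2.5 bp in width (exact permutation p from 0.5 to 1, where 0.5 is the smallest possible).

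Unknown read depth limits every statement that a peak is missing, and the CTCF map comes from another line, cell type and genotype than the STAG2 lists.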
